A study of Homo sapiens with 6 samples.

Results

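The 51 genes described here encode the proteins that license replication origins, unwind and copy DNA, supply deoxynucleotides, reassemble chromatin behind the fork and switch on transcription for S phase. Each was taken by its symbol from a list of replication and S-phase genes and matched to an identical symbol among the 20347 of the expression matrix. All 51 were found. RNA-seq was made from PaTu8988t, an established cell line of pancreatic ductal adenocarcinoma (PDAC), in 3 control replicates and 3 *SAMD1* KO clones. SAMD1 is a chromatin protein that binds unmethylated CpG islands. The control cells carried the Lenti-CRISPR V2 plasmid, which brings Cas9, with an unspecific guide RNA, and the KO cells carried it with guide RNAs against *SAMD1*. Puromycin was used to select single clones, and each KO library came from its own clone, so each clone is represented by 1 library. Neither the guide that made each clone nor the origin of the control replicates from separate cultures was given. The p-values therefore measure the spread among these 6 libraries.

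Before replication, the origin recognition complex (ORC), CDC6 and CDT1 load rings of MCM proteins onto DNA. When S phase begins, the kinase CDC7 and cyclin-dependent kinases let CDC45 and the GINS complex join these rings to form the active helicase, and DNA polymerases then copy each strand with the help of the sliding clamp PCNA. Many of these genes are transcribed in a burst at the G1/S boundary by E2F factors, which are held back by proteins of the RB family until cells commit to division.

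Averaged over the 3 clones, most replication and S-phase genes lay close to their control level. The clones were spread more widely than the control replicates, as they also were for 82.8% of all tested genes. All 51 genes passed the filter for a mean normalized count of at least 10, with means from 337 for *E2F2* to 21315 for *MCM4* and with 215 to 25186 reads per gene and library. A normalized count is a read count divided by a size factor of its library. Of the 51 genes, 0 were called higher and 0 lower at the cut-off of the study, a log2 fold change beyond 0.5 with an unadjusted p below 0.01 in limma, where 5.77% and 2.08% of the 12773 tested genes were called. edgeR and DESeq2 also called 0 in each direction at this cut-off. At an unadjusted p below 0.05 with no minimum fold, limma gave 2 higher genes (*POLA1* and *LIG1*) and 5 lower genes (*GINS1*, *TK1*, *PRIM2*, *FEN1* and *GINS3*). These 7 were 13.7% of the 51 genes, whereas 29.6% of all tested genes passed, 16.1% as higher and 13.5% as lower. edgeR gave 2 and 5 (16.9% and 12.5% of all tested genes), and DESeq2 gave 2 and 4 (16.5% and 12.8%).

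With p-values adjusted over all tested genes by the Benjamini-Hochberg method, 1 gene rose (*POLA1*) and 1 gene fell (*GINS1*) at an adjusted p below 0.05, against 8.32% higher and 4.70% lower over all tested genes. The log2 fold changes, on the log2(normalized count + 1) scale used throughout, ran from −0.32 for *FEN1* to 0.45 for *POLA1*. They were positive for 13 genes and negative for 38 (6227 and 6546 of all tested genes), with a median of −0.09 beside −0.0059 over all tested genes. In 2 genes all clones lay above all control replicates and in 8 all clones lay below, beside 19.2% and 18.6% of all tested genes.

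**Figure D1:**
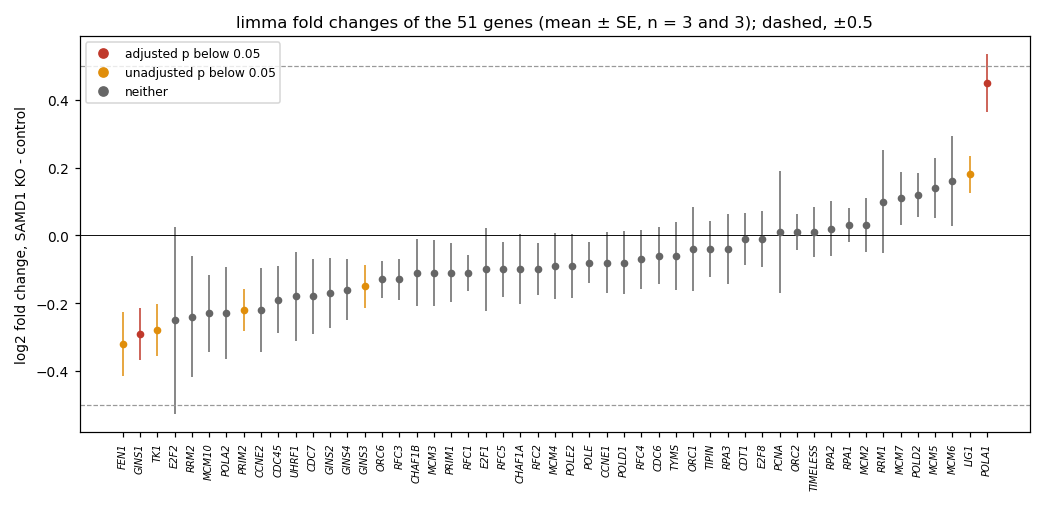
The log2 fold change of *SAMD1* KO over control is plotted for each of the 51 genes in ascending order (points, limma estimate; bars, standard error; n = 3 and 3 libraries), with dashed lines at 0.5 and −0.5. All points lie between the dashed lines, from −0.32 for *FEN1* to 0.45 for *POLA1*, and 38 of the 51 lie below 0.

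The libraries were sequenced to 35589477 to 45172216 reads, and *SAMD1* itself had 2231, 2382 and 2299 normalized counts in the control replicates and 874, 1082 and 825 in clones 1 to 3 (log2 fold change −1.32, limma adjusted p = 0.000724). Of the epithelial markers checked, *KRT8* and *KRT18*, the keratins of simple epithelia, were the most abundant, *CDH1* (E-cadherin) had a control mean of only 38.3 and *KRT19* had no reads in any library. The summed level of 6 fibroblast markers lay between 18.0 and 55.0 normalized counts in any library. For 4 endothelial markers it lay between 35.6 and 85.9. Of the leukocyte markers, *CD68* had 242 to 368 normalized counts and *PTPRC*, the common leukocyte antigen, at most 3 reads in any library. The fibroblast markers *DCN*, *LUM* and *FAP* and the T cell marker *CD3E* had no reads.

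The 3 clones took different positions. In clone 1, 37 of the 51 genes lay above the control mean and the median difference was 0.08 (log2). In clone 2, 36 lay below it with a median of −0.13, and in clone 3, 45 lay below it with a median of −0.19. The medians over all tested genes were −0.003, 0.001 and −0.004 in the same clones. Of these 12773 genes, 6307 lay above the control mean in clone 1, and 6367 and 6478 lay below it in clones 2 and 3. Measured against the range of the controls, 31 genes in clone 1 exceeded all 3 control replicates and 12 fell short of all 3 (39.3% and 39.8% of all tested genes). For clone 2 these numbers were 10 and 34 (41% and 41.3%), and for clone 3 they were 3 and 43 (39.6% and 40%). Since the libraries are from bulk RNA, a smaller share of cells in S phase and less transcript per cell cannot be told apart.

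Clone 3 was the lowest of the 6 libraries for 32 of the 51 genes (62.7%, beside 20.1% of all tested genes), and clone 1 was the highest for 30 (58.8%, beside 20.3%). Clone 1 ranked highest, clone 2 in the middle and clone 3 lowest among the clones for 33 genes, where 17.3% of all tested genes had this order. The order from clone 1 through clone 3 to clone 2 was found for 11 genes, and each of the other 4 orders for 0 to 5. Genes of one process are not independent of each other, and each clone is a single library, so these counts are descriptions without a test.

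**Figure D2:**
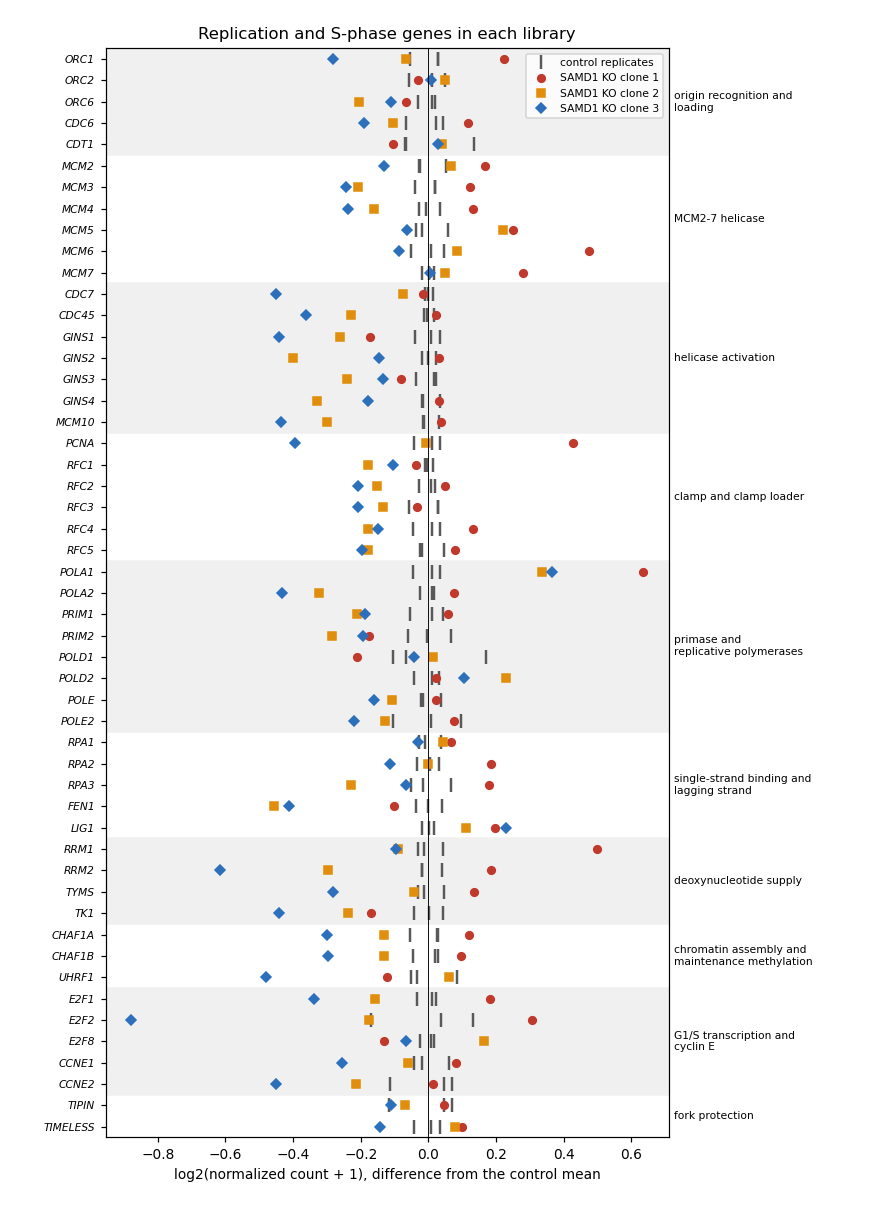
Each row is a gene, grouped by role, and the horizontal axis is the difference of log2(normalized count + 1) from the control mean (ticks, 3 control replicates; circles, squares and diamonds, clones 1, 2 and 3). Circles lie to the right of the line for 37 genes and diamonds to the left for 45, while the control ticks stay close to the line for most genes.

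The spread among the clones was wider than among the control replicates, as for most tested genes. Among the control replicates the highest value of a gene was at the median 1.05 times the lowest, and this ratio was below 1.2 for 49 of the 51 genes. Among the clones the median ratio was 1.24. Over all tested genes the medians were 1.08 among controls and 1.22 among clones. Over those with at least the mean of *E2F2* they were 1.06 and 1.18. The standard deviation of the log2 values was larger among the clones for 46 of the 51 genes (90.2%), beside 82.8% of all tested genes and 85.7% of the 9395 tested genes with at least the mean of *E2F2*. Its median was 0.164 among clones and 0.0396 among controls, beside 0.151 and 0.0586 over all tested genes. In 4 genes the clones spanned more than 1.5 times: *E2F2* (2.28), *PCNA* (1.77), *RRM2* (1.74) and *RRM1* (1.51). At the other end were *ORC2*, with 4182, 3989 and 4297 normalized counts in the controls and 4069, 4295 and 4175 in the clones, and *RPA1*, with 7325, 7416 and 7651 in the controls and 7818, 7684 and 7304 in the clones. Their highest clone was 1.06 and 1.07 times their lowest, beside 1.08 and 1.04 among the controls.

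**Figure D3:**
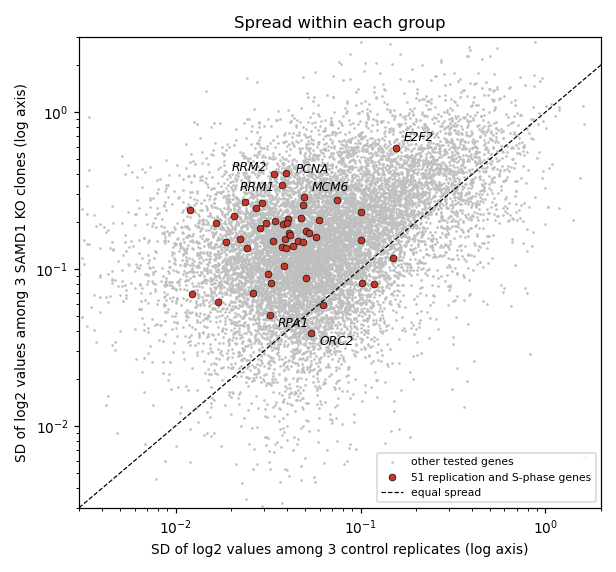
The standard deviation of log2 values among the 3 *SAMD1* KO clones is plotted against that among the 3 control replicates, both on log axes, for the 51 genes (red) and all other tested genes (grey), with a dashed line of equal spread. Of the red points 46 lie above the line, with *E2F2*, *PCNA*, *RRM2* and *RRM1* the highest, and *ORC2* is among the 5 that lie below it.

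The fold changes over all clones therefore depended on which clones entered. Without clone 1, 28 of the 51 genes were lower and 3 higher at an unadjusted p below 0.05 in limma (17.7% and 18.8% of all tested genes), and 13 fell and 1 rose at an adjusted p below 0.05 (8.78% and 11.3%). The median log2 fold change was then −0.174. The 13 were *FEN1* (−0.43, adjusted p = 0.00291), *MCM10* (−0.37, adjusted p = 0.00914), *GINS1*, *RRM2*, *MCM3*, *TK1*, *CDC45*, *POLA2*, *GINS4*, *MCM4*, *RFC5*, *PRIM2* and *E2F1*, with log2 fold changes from −0.46 for *RRM2* to −0.19 for *RFC5*. Without clone 3 the median was −0.025, with 4 genes higher and 4 lower at an unadjusted p below 0.05 (17.6% and 15.8% of all tested genes). Clone 1 was the highest library for 30 of the 51 genes, so lower fold changes of those genes without it follow from that order. The p-values without clone 1 are thus no separate evidence of a fall. Clone 1 was left out only to show its weight. No label sets it apart from the other clones.

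The promoters of 5 of these genes are shown, since the genes share a burst of transcription at G1/S and their promoters are where E2F factors are known to bind. *PCNA*, *MCM6* and *E2F1* separated the clones, *GINS1* was the gene that fell and *POLA1* the gene that rose. Each run covers 200 bases before and 20 from the start of the RefSeq transcript (GRCh38.p14), 5′ to 3′ on the strand of the gene, at chr20:5126603-5126822 (minus) for *PCNA*, chr2:135876424-135876643 (minus) for *MCM6*, chr20:25407473-25407692 (plus) for *GINS1*, chr20:33686366-33686585 (minus) for *E2F1* and chrX:24693718-24693937 (plus) for *POLA1*. Capitals mark the letters of an E2F site, TTTCGCGC, TTTGGCGC, TTTCCCGC or TTTGCCGC, on either strand. Only promoters with these letters were taken for display, so that all 5 hold them follows from the choice. Of the 44 genes with a promoter in the RefSeq set used, 22 held them. *RRM2* and *RRM1*, whose clones spanned more (1.74 and 1.51 times) than those of *MCM6* (1.48) and *E2F1* (1.43), held none. For *PCNA*, which has 2 promoters in this set, that with a match is shown.
PCNA: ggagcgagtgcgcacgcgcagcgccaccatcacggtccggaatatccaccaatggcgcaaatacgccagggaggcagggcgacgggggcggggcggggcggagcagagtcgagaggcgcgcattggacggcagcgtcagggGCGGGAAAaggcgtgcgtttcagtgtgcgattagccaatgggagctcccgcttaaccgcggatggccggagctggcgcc
MCM6: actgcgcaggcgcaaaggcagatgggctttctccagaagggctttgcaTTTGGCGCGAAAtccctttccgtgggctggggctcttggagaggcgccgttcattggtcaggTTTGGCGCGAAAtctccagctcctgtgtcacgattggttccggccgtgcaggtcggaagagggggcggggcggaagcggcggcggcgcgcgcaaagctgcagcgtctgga
GINS1: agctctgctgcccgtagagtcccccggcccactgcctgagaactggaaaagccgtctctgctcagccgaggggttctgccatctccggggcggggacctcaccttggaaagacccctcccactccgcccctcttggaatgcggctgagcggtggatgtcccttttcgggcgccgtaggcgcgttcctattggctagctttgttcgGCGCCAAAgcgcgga
E2F1: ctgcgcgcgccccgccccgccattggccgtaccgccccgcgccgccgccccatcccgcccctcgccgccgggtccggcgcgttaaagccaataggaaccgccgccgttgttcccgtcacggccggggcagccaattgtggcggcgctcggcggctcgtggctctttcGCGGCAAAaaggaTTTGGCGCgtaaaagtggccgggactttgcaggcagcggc
POLA1: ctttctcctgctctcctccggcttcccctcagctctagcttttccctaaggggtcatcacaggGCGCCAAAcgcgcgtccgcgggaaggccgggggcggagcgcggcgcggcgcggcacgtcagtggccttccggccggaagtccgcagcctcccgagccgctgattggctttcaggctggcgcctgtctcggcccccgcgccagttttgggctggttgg

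*MCM6* held 4 such matches in 2 stretches, each a TTTGGCGC that shares its last letters with a GCGCGAAA, starting at −152 and −148 and at −90 and −86. *E2F1* held 2 and *PCNA*, *GINS1* and *POLA1* held 1 each, the one of *PCNA* as GCGGGAAA starting at −59 and the one of *GINS1* as GCGCCAAA starting at 5, counted from the transcript start. The set of RefSeq promoters used here held 44 of the 51 genes, in a window of 250 bases before to 50 after the start. It did not hold *MCM4*, *MCM5*, *GINS4*, *RPA2*, *RPA3*, *E2F8* and *CCNE2*, which does not mean that RefSeq lacks them. Within this window 22 of 44 genes (50%) held the E2F letters on either strand, beside 3.99% of 27305 genes. These 27305 are all genes with a promoter in the set used, whether or not they were tested here. No share among expressed genes was taken. CCAAT, the letters that the factor NF-Y binds, was found on either strand in 61.4% of these genes and 39.72% of all genes. GCGC, which also forms part of some E2F matches, was found in 100% and 59.59%. The genes with and without the E2F letters had similar medians, 0.10, −0.08 and −0.20 (log2 difference from the control mean in clones 1 to 3) for the 22 with them and 0.06, −0.16 and −0.20 for the 22 without. A match describes the letters only, and binding was not measured here.

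Among the 5 genes of origin recognition and loading, 0 passed an unadjusted p below 0.05 in either direction, and 4 of 5 log2 fold changes were negative. *ORC6*, the smallest subunit of the ORC, had 3682, 3811 and 3786 normalized counts in the controls and 3588, 3263 and 3484 in the clones. All clones lay below all controls, with a log2 fold change of −0.13 (standard error, SE, 0.0552; limma adjusted p = 0.176). *ORC1*, whose protein rises and falls through the cycle in human cells, had 1658, 1356 and 1168 in clones 1 to 3, above, just below and below a control range of 1367 to 1450. *CDC6*, which loads the helicase together with CDT1, followed the same order with 4516, 3872 and 3648 beside 3976 to 4284 in the controls. *CDT1* did not. It had its lowest value in clone 1 (2657), and clones 2 and 3 (2937 and 2914) lay within the control range of 2719 to 3138.

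The 6 subunits of the MCM helicase were the group with the highest median in clone 1. All 6 lay above the control mean there, with a median of 0.21 (log2), whereas 5 of 6 lay below it in clone 3, with a median of −0.11. Over all clones 4 of 6 fold changes were positive, with a median of 0.07, and 0 passed an unadjusted p below 0.05. *MCM6* had 7344, 7050 and 7546 in the controls and 10152, 7748 and 6882 in the clones, so that clone 1 stood at 1.39 times the control mean and clone 3 just below every control. *MCM4*, with the highest mean of all 51 genes, had 21815, 21503 and 22423 in the controls and 24009, 19578 and 18565 in the clones. *MCM5*, with the smallest p of the group, had 6909, 7292 and 6830 in the controls and 8337, 8171 and 6702 in the clones. Its log2 fold change was 0.14 (SE 0.0886, limma adjusted p = 0.347). Without clone 3 it was 0.24 with an adjusted p of 0.0269, and without clone 1 it was 0.08 with an adjusted p of 0.560. *MCM7* had its lowest clone value, 14918 in clone 3, inside the control range of 14683 to 15067, and 18071 in clone 1. *MCM3* was the one subunit besides *MCM4* with a negative fold change (−0.11).

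The 7 genes of helicase activation were the group with the most negative median fold change. All 7 fold changes were negative, with a median of −0.18, and all 7 lay below the control mean in clones 2 and 3, where the medians were −0.26 and −0.36. In clone 1 the median was 0.02. *GINS1*, a subunit of the 4-membered GINS complex that holds CDC45 on the MCM ring, had 2805, 2714 and 2857 normalized counts in the controls (mean 2792 ± 72.2, SD, n = 3) and 2475, 2327 and 2054 in the clones (2285 ± 213, SD, n = 3). All clones lay below all controls. It fell by 0.29 on the log2 scale (SE 0.0769, limma adjusted p = 0.0480; edgeR adjusted p = 0.0494 and DESeq2 adjusted p = 0.0146). The adjusted limma p was above 0.05 without any 1 of the controls (0.134 to 0.182) and without clone 2 (0.0643). *GINS1* overlaps *NINL* on the other strand over 1.79% of its extent, and the strand setting of the counting was not given.

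The other GINS subunits were lower mainly in clones 2 and 3. *GINS3* had 1869, 1860 and 1793 in the controls and 1738, 1557 and 1675 in the clones, without overlap. Its log2 fold change was −0.15 (SE 0.0632, unadjusted p = 0.0445, limma adjusted p = 0.157). Its 40 tested neighbours, taken in order along the chromosome on both sides, had medians of −0.17, −0.26 and 0.03 in clones 1 to 3. With these removed the value was −0.01 (limma adjusted p = 0.915). *GINS4* had 3893, 3883 and 4024 in the controls and 4020, 3127 and 3473 in the clones, and *GINS2* had 3226, 3186 and 3278 in the controls and 3301, 2448 and 2919 in the clones. For both, clone 1 was close to the highest control and clone 2 was the lowest library. *MCM10*, which helps the helicase to start unwinding, had 3974, 3966 and 4102 in the controls and 4122, 3261 and 2969 in the clones (log2 fold change −0.23, SE 0.114, limma adjusted p = 0.223). *CDC45* had 1752, 1726 and 1714 in the controls and 1759, 1476 and 1346 in the clones (−0.19, SE 0.0987, limma adjusted p = 0.248). In both, clone 1 was above every control and clones 2 and 3 were below. *CDC7*, the kinase that phosphorylates the MCM ring, was near its controls (3363 to 3418) in clone 1 (3351), lower in clone 2 (3217) and far lower in clone 3 (2478).

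*PCNA*, the clamp that tethers polymerases to DNA, followed the order of the clones with a span of 1.77 times. It had 12407, 11759 and 12197 normalized counts in the controls and 16285, 12067 and 9222 in the clones. Clone 1 was 1.34 times and clone 3 0.761 times the control mean, while clone 2 lay within the controls, so that the fold change over all clones was 0.01 (SE 0.181, limma adjusted p = 0.979). The 40 tested neighbours of *PCNA* on chromosome 20 had median log2 differences of 0.33, 0.24 and −0.10 in clones 1 to 3, beside 0.43, −0.01 and −0.39 for *PCNA* itself. With these medians removed, the log2 fold change was −0.15 (limma adjusted p = 0.328).

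The 5 subunits of the clamp loader RFC were all lower than the control mean in clones 2 and 3 and stayed within narrow limits, from 0.865 to 0.929 times the control mean. *RFC3* had 5489, 5168 and 5493 in the controls and 5257, 4900 and 4657 in the clones (log2 fold change −0.13, SE 0.0615, limma adjusted p = 0.221). *RFC1*, the large subunit, had 6924, 6892 and 7006 in the controls and 6760, 6138 and 6451 in the clones, without overlap (−0.11, SE 0.0528, limma adjusted p = 0.225). *RFC2*, *RFC4* and *RFC5* were above every control in clone 1 (2236, 5130 and 4544) and below every control in clones 2 and 3.

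The primase and polymerase genes held the only member that rose. *POLA1*, the catalytic subunit of DNA polymerase alpha, which starts each new strand (chromosome X, 24693873 to 24996986, plus strand), had 3645, 3501 and 3702 normalized counts in the controls (3616 ± 104, SD, n = 3) and 5613, 4563 and 4659 in the clones (4945 ± 580, SD, n = 3). All clones lay above all controls. The log2 fold change was 0.45 (SE 0.0849, limma adjusted p = 0.0166; edgeR adjusted p = 0.0154 and DESeq2 adjusted p = 0.000129). Without any 1 of the controls the adjusted limma p was above 0.05 (0.0716 to 0.0850). Its neighbours on chromosome X had similar values. Of the 40 tested genes next to *POLA1* in order along the chromosome, at −5.79 Mb to 16.87 Mb from it, 37 had a positive log2 fold change. The median was 0.46. By clone the medians were 0.41, 0.43 and 0.47, beside 0.63, 0.34 and 0.37 for *POLA1*. With the regional median removed from each library, the log2 fold change of *POLA1* was 0.01 (limma adjusted p = 0.957).

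**Figure D4:**
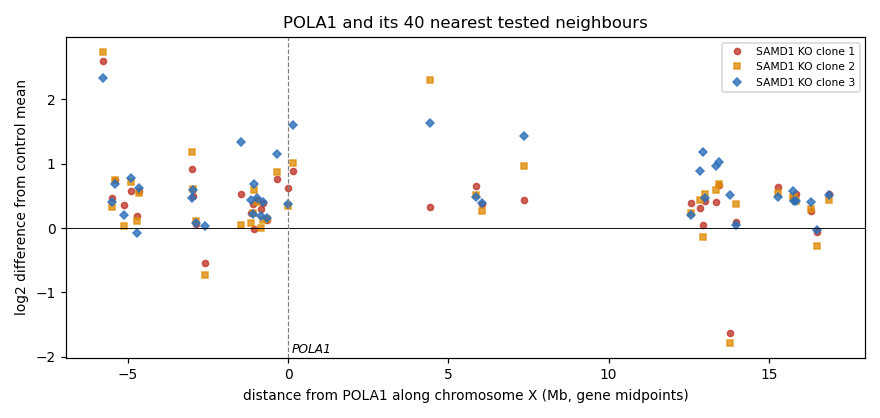
The log2 difference from the control mean in clones 1, 2 and 3 (circles, squares and diamonds) is plotted against the distance from *POLA1* in Mb. Shown are *POLA1*, at the dashed line, and its 40 tested neighbours, taken in order along the chromosome on both sides. Most points lie above 0 on both sides, and *POLA1*, at 0.63, 0.34 and 0.37, lies among its neighbours.

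The partner subunits of *POLA1* did not share its direction. *POLA2*, the second polymerase alpha subunit, had 581, 564 and 578 in the controls and 605, 459 and 425 in the clones. *PRIM1*, the catalytic primase subunit, had 1350, 1292 and 1381 in the controls and 1395, 1158 and 1176 in the clones. Both were above all controls in clone 1 and below them in clones 2 and 3. *PRIM1* shares 5.43% of its extent with the abundant *NACA* on the same strand. *PRIM2*, the large primase subunit, was below all controls in every clone, with 1914, 1843 and 2010 in the controls and 1702, 1578 and 1681 in the clones. Its log2 fold change was −0.22 (SE 0.0626, unadjusted p = 0.00973, limma adjusted p = 0.0635). Its 40 neighbours on chromosome 6 had medians of −0.16, −0.10 and 0.02 in clones 1 to 3, and with these removed the value was −0.13 (limma adjusted p = 0.199).

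Of the polymerases that extend the strands, *POLD2*, the accessory subunit of polymerase delta, had 5392, 5466 and 5192 in the controls and 5431, 6264 and 5748 in the clones (log2 fold change 0.12, SE 0.0642, limma adjusted p = 0.267). It departed from the order of most genes, since clone 2 was the highest and clone 1 lay within the controls. *POLD1*, the catalytic subunit of polymerase delta, was widely spread in the controls (2837 to 3438), and its lowest value was that of clone 1 (2636). *POLE*, the catalytic subunit of polymerase epsilon and the most abundant of this group, had 7400, 7698 and 7426 in the controls and 7617, 6968 and 6720 in the clones. *POLE2* had 1473, 1279 and 1200 in clones 1 to 3 beside 1300 to 1494 in the controls.

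*FEN1*, the nuclease that trims the flaps of Okazaki fragments, had the most negative fold change of the 51 genes. It had 8826, 8370 and 8585 normalized counts in the controls (8594 ± 228, SD, n = 3) and 8007, 6264 and 6454 in the clones (6908 ± 956, SD, n = 3). All clones lay below all controls, clone 1 by little and clones 2 and 3 to 0.729 and 0.751 times the control mean. The log2 fold change was −0.32 (SE 0.0945, unadjusted p = 0.0104, limma adjusted p = 0.0657; edgeR adjusted p = 0.0751 and DESeq2 adjusted p = 0.0260). *FEN1* lies inside the extent of *FADS2* on the same strand for 98.4% of its length, so reads may be shared between them. *FADS2* had a control mean of 1749 and a log2 fold change of −0.11.

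*LIG1*, the ligase that joins the trimmed fragments, had a fold change of the opposite sign to *FEN1*. It had 2722, 2787 and 2759 in the controls and 3159, 2975 and 3228 in the clones, and all clones lay above all controls. Its log2 fold change was 0.18 (SE 0.0536, unadjusted p = 0.0118, limma adjusted p = 0.0710). Its 40 neighbours on chromosome 19 had medians of −0.02, 0.08 and 0.36 in clones 1 to 3, beside 0.20, 0.11 and 0.23 for *LIG1*, and with these medians removed the value was 0.05 (limma adjusted p = 0.725). The single-strand binding proteins RPA1, RPA2 and RPA3 showed small fold changes of 0.03, 0.02 and −0.04. *RPA2* had 3182, 2798 and 2585 in clones 1 to 3 beside 2731 to 2860 in the controls. *RPA3* lies across from *UMAD1* on the other strand over 94.9% of its extent and had 2958, 2228 and 2495 beside 2522 to 2733.

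The 4 genes of deoxynucleotide supply showed the widest differences between clones 1 and 3, with medians of 0.16 and −0.36 (log2). Ribonucleotide reductase, which makes deoxynucleotides from ribonucleotides, is built of the products of *RRM1* and *RRM2*, and both transcripts were highest in clone 1. *RRM1* had 17484, 17257 and 18150 normalized counts in the controls and 24905, 16550 and 16507 in the clones, so that clone 1 was 1.41 times the control mean and clones 2 and 3 just below it. The 40 neighbours of *RRM1* on chromosome 11 had medians of 0.41, 0.17 and 0.13 in clones 1 to 3, beside 0.50, −0.09 and −0.09 for *RRM1*. *RRM2*, which limits the activity of the enzyme outside S phase, had 12228, 12218 and 12733 in the controls and 14079, 10076 and 8079 in the clones. Here the neighbours were near 0 in every clone (0.05, 0.03 and 0.05), and clone 3 was at 0.652 times the control mean. Over all clones the log2 fold changes were 0.10 (limma adjusted p = 0.692) for *RRM1* and −0.24 (limma adjusted p = 0.40) for *RRM2*. For *RRM1* the value was −0.13 (limma adjusted p = 0.385) with the regional medians removed and −0.09 without clone 1.

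*TK1*, the thymidine kinase of the salvage pathway, differed from them in being lower in every clone. It had 6132, 6315 and 5950 in the controls (6132 ± 183, SD, n = 3) and 5451, 5202 and 4516 in the clones (5056 ± 484, SD, n = 3). The log2 fold change was −0.28 (SE 0.0766, unadjusted p = 0.00722, limma adjusted p = 0.0530; edgeR adjusted p = 0.0572 and DESeq2 adjusted p = 0.0172). Its neighbours on chromosome 17 had medians of 0.03, 0.02 and −0.06, and with these removed the value was −0.28 with a limma adjusted p of 0.0135. *TYMS*, the thymidylate synthase of the de novo pathway, had 4494, 3971 and 3368 in clones 1 to 3 beside 4006 to 4226 in the controls. It shares 20.5% of its extent with *ENOSF1* on the other strand.

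The 2 large subunits of chromatin assembly factor 1, which deposits new histones behind the fork, took the same order across the clones. *CHAF1A* had 3260, 3266 and 3081 in the controls and 3480, 2922 and 2599 in the clones, and *CHAF1B* had 2391, 2286 and 2404 in the controls and 2521, 2155 and 1919 in the clones. Clone 3 was 0.812 and 0.813 times the control mean. *UHRF1*, which recruits the maintenance methyltransferase DNMT1 to hemimethylated CpG sites, had 2164, 2350 and 2137 in the controls and 2035, 2311 and 1588 in the clones, so that clone 2 lay within the controls and clones 1 and 3 below them. Its log2 fold change was −0.18 (SE 0.131, limma adjusted p = 0.397).

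All 5 genes of G1/S transcription and cyclin E had a negative fold change, and 0 passed an unadjusted p below 0.05. *E2F1*, an activator of S-phase genes, had 2607, 2630 and 2530 in the controls and 2937, 2321 and 2047 in the clones. *E2F2*, a second activator and the least abundant of the 51 genes by mean count, had 365, 390 and 316 in the controls and 440, 315 and 193 in the clones. For both, clone 1 was above all controls and clone 3 below them, and clone 2 was below them for *E2F1* and at the lowest control for *E2F2*. *E2F8*, an atypical repressor of E2F targets, ran otherwise, with 2293, 2309 and 2242 in the controls and 2084, 2558 and 2177 in the clones. *CCNE1* had 2007, 1822 and 1590 in clones 1 to 3 beside 1844 to 1978 in the controls. *CCNE2*, which like *CCNE1* encodes a cyclin E that activates CDK2, had 1096, 980 and 1113 in the controls and 1071, 914 and 777 in the clones (log2 fold change −0.22, SE 0.123, limma adjusted p = 0.281). *CCNE2* shares 11.7% of its extent with *INTS8* on the other strand.

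*TIMELESS* and *TIPIN*, whose products form a complex that steadies the stalled fork, differed little between groups. *TIMELESS* had 6789, 7165 and 7040 in the controls and 7496, 7388 and 6333 in the clones (log2 fold change 0.01, SE 0.0739, limma adjusted p = 0.936), so that clones 1 and 2 lay above and clone 3 below the controls. *TIPIN* had 1029, 919 and 1046 in the controls and 1029, 949 and 923 in the clones (−0.04, SE 0.0816, limma adjusted p = 0.755), and every clone lay within the controls.

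Levels can be compared between genes only per length. Per kb of exon, *PCNA* had the highest control mean, 8639 normalized counts per kb, followed by *RRM1* with 4165, *FEN1* with 3910 and *MCM3* with 3572. *TK1* had 3324 and *MCM7* 3001. The MCM subunits, which act as a ring with 1 copy of each, ran from 965 for *MCM5* to 3572 for *MCM3*. The polymerase genes were lower, from 47.8 for *POLA2* and 233 for *POLA1* to 668 for *POLD2*. *E2F2* had 65.4, beside 962 for *E2F1* and 552 for *E2F8*. These values use the union of all annotated exons, which for genes with many transcripts exceeds the length of the main one. This union was 3.65 kb for *MCM3*, 7.27 kb for *MCM5*, 12.01 kb for *POLA2* and 15.55 kb for *POLA1*. How much of the wider gaps between genes comes from these lengths was not tested. The order between close neighbours such as *RPA1* (1359) and *RRM2* (1354) cannot be read.

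**Figure D5:**
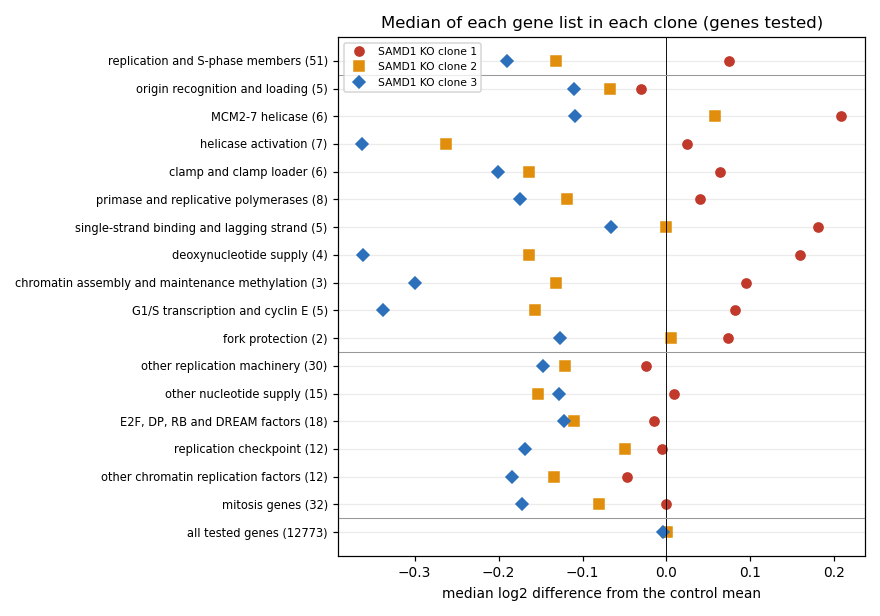
The median log2 difference from the control mean is plotted for clones 1, 2 and 3 (circles, squares and diamonds) in the 51 genes, in each of their roles, in 6 further gene lists and in all tested genes, with the number of genes tested in brackets. For the 51 genes the medians are 0.075, −0.131 and −0.190, and those of all tested genes lie at 0.

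Other genes of the same processes, taken as lists in addition to the 51, also had negative medians in clones 2 and 3. Of 30 further genes of the replication machinery, 0 were higher and 5 lower at an unadjusted p below 0.05, which 16.1% and 13.5% of all tested genes passed, with medians of −0.024, −0.121 and −0.147 in clones 1 to 3. They included *TICRR*, which brings initiation factors to the origin (log2 fold change −0.18, limma adjusted p = 0.110). Of 15 further genes of nucleotide supply, 1 was higher and 2 lower. *CTPS1*, which makes CTP, had 18795, 18066 and 18467 in the controls and 15678, 13777 and 14565 in the clones, and it fell by 0.33 on the log2 scale (SE 0.0613, limma adjusted p = 0.0147). Of 12 checkpoint genes, 0 were higher and 1 lower, and of 12 further chromatin factors, 0 and 3, at the same threshold.

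Among the regulators of these genes, *E2F3* and *E2F4* fell, with every clone below every control. Of 18 genes of E2F, DP, RB and DREAM factors, 1 was higher and 6 lower at an unadjusted p below 0.05, beside 16.1% and 13.5% of all tested genes. *E2F3*, the third of the activators, had 3409, 3295 and 3417 in the controls and 2451, 2650 and 2619 in the clones, and it fell by 0.39 on the log2 scale (SE 0.0544, limma adjusted p = 0.00523). *E2F4*, which acts with the RB family in resting cells, had 9102, 9288 and 8912 in the controls and 7072, 6772 and 8196 in the clones, and it fell by 0.31 (SE 0.0763, limma adjusted p = 0.0383). *CDK2*, the kinase partner of cyclin E, had 8823, 8704 and 8533 in the controls and 7898, 6018 and 5958 in the clones (log2 fold change −0.40, limma adjusted p = 0.0510). With the regional medians removed, the values were −0.43 for *E2F3*, −0.16 for *E2F4* and −0.34 for *CDK2*. Unlike *E2F1* and *E2F2*, *E2F3* was thus low in clone 1 too.

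Of 32 genes of mitosis, which are expressed later in the cycle, 0 were higher and 5 lower at an unadjusted p below 0.05 (16.1% and 13.5% of all tested genes). Below the control mean lay 30 of 32 in clone 3 (median −0.172), 22 in clone 2 (median −0.080) and 15 in clone 1 (median 0.000). Of all 12773 tested genes, 6478, 6367 and 6466 lay below it in clones 3, 2 and 1. *MKI67*, the proliferation marker Ki-67, had 28885, 30099 and 30152 in the controls and 22045, 17050 and 25781 in the clones (log2 fold change −0.48, SE 0.138, limma adjusted p = 0.0633). Its lowest value was in clone 2 and its highest clone value in clone 3, an order that 1 of the 51 genes had (16.2% of all tested genes). *MCMBP*, of the further replication genes, had this order too, with 6083, 5308 and 7980 in clones 1 to 3. With the regional medians removed, the log2 fold change of *MKI67* was −0.31. Whether its order across the clones follows its region was not tested. *NDC80*, a kinetochore gene, had 6417, 5941 and 6369 in the controls and 5703, 5198 and 4989 in the clones (−0.24, limma adjusted p = 0.0564).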

How the data were processed

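Expression was measured by RNA-seq (TruSeq Stranded mRNA kit) in 3 control and 3 *SAMD1* KO libraries, and groups were taken from the sample titles. The authors used RNA-STAR with the GenCode 43 transcriptome, and their processing notes name hg38, featureCounts and DESeq2. The deposited signal is a normalized count, the reads of a gene scaled by the size factor of its library. Whole reads were recovered by dividing by the smallest step (tolerance 0.001), giving 35589477 to 45172216 reads per library. The authors' DESeq2 comparison, which holds fold changes and p-values, was not used. No column of sample values was left unused (0 columns).

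limma 3.58.1 (lmFit and eBayes with trend, two-sided) in R 4.3.3 was fitted to log2(normalized count + 1) of the 12773 genes with a mean of at least 10, and p-values were adjusted over these genes by the Benjamini-Hochberg method. The cut-off was a log2 fold change beyond 0.5 with an unadjusted p below 0.01. With 3 libraries in each group, the smallest p of an exact permutation test is 0.1. The fit was repeated with another pseudocount (0.1 or 10), another filter (none or a mean of at least 50), scaling to the 75th percentile, a block for the replicate number and each library left out in turn, with the quasi-likelihood test of edgeR 4.0.16 and with DESeq2 1.42.0 on recovered reads, and after removing the median log2 difference of the 40 nearest tested genes. For the order of the libraries, 2 of these were added after the data were seen. limma, edgeR and DESeq2 were tested on simulated data. Positions and exon lengths are from GENCODE 44 on GRCh38 (99.23% of tested genes), and promoters from RefSeq.

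The genes, the lists and the tests were chosen with earlier results of these data known. Values in each library are given for genes with an unadjusted p below 0.05 or among the 15 smallest, for the gene with the smallest p and that with the highest mean in each role, and for up to 3 genes of smallest p in each further list. *ORC1*, *CDC6*, *CDT1*, *MCM6*, *MCM7*, *CDC7*, *GINS2*, *RFC2*, *RFC4*, *RFC5*, *POLA2*, *PRIM1*, *POLD1*, *POLE2*, *RPA1*, *RPA2*, *RPA3*, *RRM2*, *TYMS*, *CHAF1B*, *E2F2*, *E2F8* and *CCNE1* fall outside this rule and were given values after these had been seen. Python 3.11.15, numpy 2.4.6 and pandas 2.3.3 were also used. A further leukocyte marker is not reported here.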

Additional observations from a re-analysis of the deposited data

How the results depend on the processing

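Under every alternative run with all 6 libraries, 0 of the 51 genes were called at the cut-off of the study, and the median log2 fold change stayed negative. The number at an adjusted p below 0.05, 1 higher and 1 lower as reported, changed with single genes near the threshold. Lower genes were 0 with no filter on low counts and with 75th percentile scaling, 4 with DESeq2 and 2 with the regional shift removed. Higher genes were 2 with 75th percentile scaling and with DESeq2, and 0 with the regional shift removed. After that removal 1 gene was higher at an unadjusted p below 0.05, *POLD2* (0.16, limma adjusted p = 0.155), while *POLA1* and *LIG1* were at 0.01 and 0.05. Leaving out 1 library at a time gave 0 to 1 higher genes at the cut-off, 1 to 4 higher and 3 to 28 lower at an unadjusted p below 0.05, and 0 to 2 higher and 0 to 13 lower at an adjusted p below 0.05. The 28 and 13 are the values without clone 1, and the 1 called gene, *POLA1*, that without clone 2. The median then ran from −0.174 without clone 1 to −0.025 without clone 3. With 75th percentile scaling 26 genes were highest in clone 1 and 30 lowest in clone 3, and with the regional shift removed 35 and 33. The median kept its sign under each of these alternatives, as did the fold changes of the 15 genes with the smallest p. Of the 51 genes, 18 took the opposite sign in at least 1 alternative, and for 4 of these the reported value was beyond 0.1 in size. Without clone 1 *MCM6* moved from 0.16 to −0.00 and *RRM1* from 0.10 to −0.09 (−0.13 with the regional shift removed), and without clone 3 *E2F1* moved from −0.10 to 0.01 and *E2F2* from −0.25 to 0.07. *PCNA*, at 0.01, was at −0.20 without clone 1 and at −0.15 with the regional shift removed.

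With the replicate number as a block, 2 genes were higher and 4 lower at an unadjusted p below 0.05, and 1 and 0 at an adjusted p below 0.05, since *GINS1* had an adjusted p of 0.0763. Deviations of equally numbered control and KO libraries correlated at 0.0391, 0.134 and 0.0318 over genes, and control replicate 3 correlated best with clone 1 (0.0360), so the numbers were not taken as a pairing.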
